A study of Homo sapiens with 9 samples.

Results

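The SLC4 family encodes membrane proteins that carry bicarbonate and related ions, and 8 of its 10 human genes were followed here: SLC4A2, SLC4A3, SLC4A4, SLC4A5, SLC4A7, SLC4A8, SLC4A10 and SLC4A11. They are 8 of the 58735 genes in the deposited tables, found by their GENCODE 29 symbols, and 7 of them were among the 18088 genes that passed the low-count filter. The family was chosen by its CPM and fold change in earlier results of these data, in which SLC4A8 stood out with the PHF12 siRNA. SLC4A8 in the PHF12 knockdown is therefore described without a test, and the other members entered by family name. RNA was sequenced from HEK293T cells, an established line derived from human embryonic kidney and expressing the large T antigen of SV40. Cells were kept for 36 h after lipid transfection (RNAiMAX) with 10 nM of an siRNA against PHF12, of an siRNA against SUDS3, or of Silencer Select Negative Control No. 2, with 3 libraries of each kind. PHF12 and SUDS3 encode subunits of SIN3 histone deacetylase complexes, and the comparisons ask which transcripts differ when either is depleted. The labels name a single siRNA per target, so the effect of a target and that of its siRNA cannot be told apart. Every library, controls included, comes from transfected cells.

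SLC4 proteins set the pH inside cells and move acid or base across epithelia. Members that couple bicarbonate to sodium usually load the cell with base: SLC4A4 and SLC4A5 are electrogenic sodium bicarbonate cotransporters, SLC4A7 and SLC4A10 are electroneutral ones, and SLC4A8 exchanges sodium and bicarbonate for chloride. SLC4A2 and SLC4A3 exchange chloride for bicarbonate without sodium and usually export base. SLC4A11 belongs to the family by sequence but conducts protons or hydroxide rather than bicarbonate. In the kidney SLC4A4 is known for returning bicarbonate to the blood from the proximal tubule, and SLC4A8 is best known from neurons and from the renal collecting duct.

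Libraries held 37962926 to 50946148 counts. Nearly all low counts were multiples of 4, so a fragment appears to be worth 4 counts, and both are given where they are small. Levels are counts scaled by TMM to 1000000 a library (CPM). PHF12 RNA stood at 26.9 ± 2.08 CPM with its siRNA and 49.9 ± 0.938 CPM in controls, and SUDS3 RNA at 22.1 ± 0.937 CPM with its siRNA and 111.1 ± 3.31 CPM in controls (SD, n = 3 each). With the siRNA against the other gene, SUDS3 RNA stood at 81.0 ± 0.784 CPM and PHF12 RNA at 61.5 ± 1.73 CPM. Both differences from controls were called. SUDS3 RNA was lower in the PHF12 knockdown (log2 fold change -0.46, edgeR adjusted p = 6.83e-10). PHF12 RNA was higher in the SUDS3 knockdown (0.30, edgeR adjusted p = 7.19e-05). Of 6 HEK293 markers, 5 were above 1 CPM in every group, while PAX8 averaged 0.0945 CPM in controls and was at 0 in both knockdowns. PAX8 had 4 counts in each control, the worth of a fragment, which is too few to read as a difference. The summed level of the 6 markers was 918 to 951 CPM in the PHF12 knockdown, 668 to 678 CPM in the SUDS3 knockdown and 872 to 875 CPM in controls, most of it VIM. In the PHF12 knockdown VIM and KRT8 were called higher and KRT18 and CDH2 lower, and in the SUDS3 knockdown VIM, KRT8 and CDH2 were called lower. The part of these changes in the SLC4 results was not tested. Neuron markers summed to 12.2 to 14.9 CPM in the PHF12 knockdown, 12.6 to 17.3 CPM in the SUDS3 knockdown and 17.0 to 18.2 CPM in controls, with SLC17A6 at 0 throughout. GAD1 made up most of that sum. GAD1 and RBFOX3 were called lower in both knockdowns, and SLC17A7 was called higher in both (log2 fold change 0.66, adjusted p = 0.0327, with the siRNA against PHF12 and 0.61, adjusted p = 0.0425, with that against SUDS3). Summed glia markers, mostly OLIG2, reached at most 13.7 CPM in any library, blood cell markers 1.75 CPM with PTPRC, CD3E and HBB at 0, and liver markers 0.640 CPM. In bulk RNA, fewer cells that express a gene and less of its RNA per cell cannot be told apart.

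SLC4A8 (ENSG00000050438) lies on the + strand of GRCh38 chromosome 12, from 51391317 to 51515763, and its merged exons span 17980 bases. The sequence before its RefSeq start at 51424831 is shown because this is the member whose level varied most. The stretch chr12:51424581-51424770, read on the + strand of GRCh38.p14, ends where a GENCODE exon of the gene begins and holds 11 CpG dinucleotides:
SLC4A8 upstream: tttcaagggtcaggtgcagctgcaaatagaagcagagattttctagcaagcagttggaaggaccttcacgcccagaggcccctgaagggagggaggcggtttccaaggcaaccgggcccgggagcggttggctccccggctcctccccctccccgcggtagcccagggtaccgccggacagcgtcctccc
The 250 bases before the RefSeq start run on into that exon, and hold 2 matches to the CCAAT box, whose letters are CCAAT or, on the other strand, ATTGG. RefSeq lists another SLC4A8 start at 51425117, whose window holds 24 CpG dinucleotides and no match to the CCAAT box. Both matches of the upstream window stand in chr12:51424786-51424814, with the letters in capitals:
SLC4A8 CCAAT-box pair: ATTGGctgcgcaggcctctcgctgATTGG
Among 35116 RefSeq promoter windows of 250 bases, 32% hold at least 1 such match, and the median CpG count is 11. The match is not particular to SLC4A8 among the members. An SLC4A4 window holds 3, each SLC4A7 window holds 1, and an SLC4A2 window holds 1. Other windows of SLC4A4 and SLC4A2, and those of SLC4A5 and SLC4A10, hold none. Neither SLC4A8 window holds the GC box GGGCGG or its complement CCGCCC, found in 42.6% of windows, or the E-box CACGTG, found in 6.34%. SLC4A3 is shown for comparison because it was the only other member called higher with the PHF12 siRNA and lower with the SUDS3 siRNA. Its window, chr2:219630807-219631056 on the + strand, holds 5 CpG dinucleotides and none of these 3 motifs:
SLC4A3 upstream: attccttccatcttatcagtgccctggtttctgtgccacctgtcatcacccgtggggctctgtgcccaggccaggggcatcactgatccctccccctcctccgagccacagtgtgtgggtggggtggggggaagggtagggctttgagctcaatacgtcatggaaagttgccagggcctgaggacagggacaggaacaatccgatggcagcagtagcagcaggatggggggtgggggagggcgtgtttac
The windows shown lie inside the GENCODE spans of SLC4A8 and SLC4A3, downstream of the first annotated base of each gene. These matches describe the letters of the windows, and no binding was measured.

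SLC4A8 RNA was high in the PHF12 knockdown and low in the SUDS3 knockdown. It measured 14.6, 12.2 and 12.1 CPM in the 3 PHF12 knockdown libraries, 1.28, 1.33 and 1.47 CPM in the SUDS3 knockdown libraries, and 2.65, 3.03 and 2.22 CPM in the controls. The 3 groups did not overlap. The counts behind these levels were 700, 616 and 524 in the PHF12 knockdown, 56, 64 and 60 in the SUDS3 knockdown, and 116, 140 and 84 in controls. At 4 counts a fragment, the SUDS3 knockdown values rest on 14 to 16 fragments a library and the control values on 21 to 35.

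The mean level of SLC4A8 was 12.96 ± 1.39 CPM in the PHF12 knockdown, 1.36 ± 0.0967 CPM in the SUDS3 knockdown and 2.63 ± 0.405 CPM in controls (SD, n = 3). In the PHF12 knockdown it was thus 4.92-fold the control mean (log2 fold change 2.29, SE 0.16), a difference for which the gene was chosen. In the SUDS3 knockdown SLC4A8 fell 1.93-fold below controls (log2 fold change -0.95, SE 0.18, edgeR adjusted p = 5.63e-05), with all 3 libraries below all 3 controls, though the same controls entered the choice of the gene. Between the knockdowns the log2 difference, SUDS3 minus PHF12, was -3.25 (SE 0.17), again a description. The fall with the SUDS3 siRNA did not pass when limma was applied to the authors' TPM, where the log2 fold change was -0.50 with a pseudocount of 0.1 (adjusted p = 0.249) and -0.10 with a pseudocount of 1 (adjusted p = 0.388). SLC4A8 lies low on that scale, at 0.794 ± 0.0850 TPM in the PHF12 knockdown, 0.0843 ± 0.00584 TPM in the SUDS3 knockdown and 0.161 ± 0.0246 TPM in controls. The limma fit kept genes with at least 0.5 TPM in at least 3 libraries, which SLC4A8 met only through the PHF12 knockdown libraries. Pseudocounts near or above the SUDS3 knockdown and control levels shrink their fold change, so limma on TPM cannot decide on this fall.

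The glia marker GFAP, which encodes a filament protein of astrocytes, moved in the same directions as SLC4A8. Its counts a library were 88 to 136 in the PHF12 knockdown, 12 to 32 in the SUDS3 knockdown and 36 to 64 in controls. At 4 counts a fragment, the SUDS3 knockdown values rest on few fragments. GFAP stood at 2.29 ± 0.743 CPM in the PHF12 knockdown, 0.510 ± 0.220 CPM in the SUDS3 knockdown and 1.12 ± 0.283 CPM in controls. It was called higher in the PHF12 knockdown (log2 fold change 1.02, adjusted p = 0.0169) and lower in the SUDS3 knockdown (-1.13, adjusted p = 0.0132), and differed between the knockdowns (-2.16, adjusted p = 4.73e-06). The other glia markers, OLIG2 and AQP4, passed in none of the 3 comparisons. All libraries came from the HEK293T line, and a link between the GFAP and SLC4A8 changes was not tested.

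GALNT6, a gene on the opposite strand that shares 392 exon bases with SLC4A8, encodes an enzyme that starts mucin-type sugar chains. It stood at 10.3 ± 0.555 CPM in the PHF12 knockdown, 9.89 ± 0.523 CPM in the SUDS3 knockdown and 10.9 ± 0.903 CPM in controls. Neither difference from controls passed (PHF12 knockdown: -0.08 on the log2 scale, adjusted p = 0.646, and SUDS3 knockdown: -0.14, adjusted p = 0.359).

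**Figure D1:**
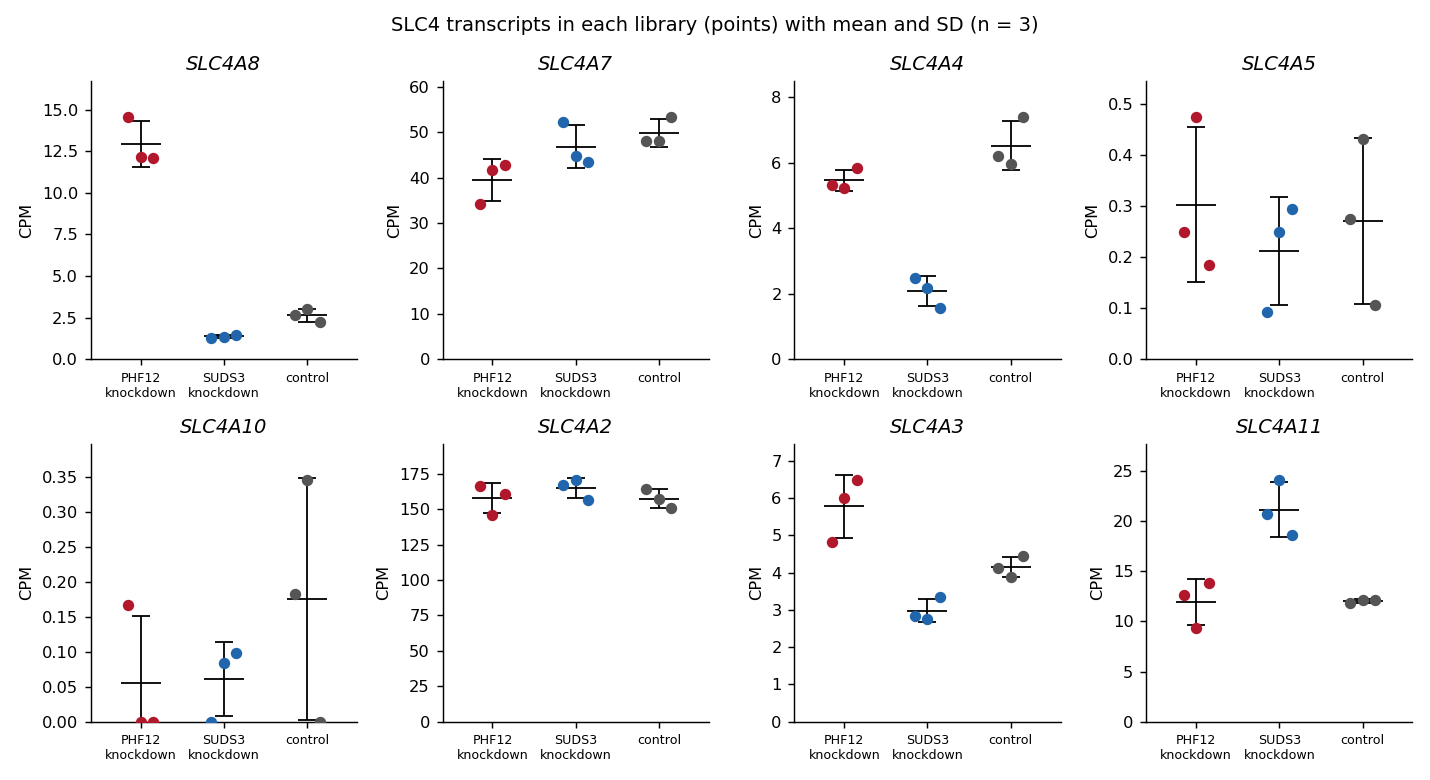
CPM (vertical axes, linear from 0) of the 8 SLC4 members in each library, with PHF12 knockdown, SUDS3 knockdown and control from left to right; points are libraries and bars are the mean and SD of 3. SLC4A8 separates the groups, at 12.1 to 14.6 CPM in the PHF12 knockdown, 1.28 to 1.47 CPM in the SUDS3 knockdown and 2.22 to 3.03 CPM in controls, whereas the SLC4A2 libraries of the 3 groups overlap.

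SLC4A7 (ENSG00000033867, chromosome 3, 27372721 to 27484420, - strand), the most abundant of the sodium-coupled members, was lower in the PHF12 knockdown. Its level was 34.3, 41.6 and 42.7 CPM in the PHF12 knockdown libraries, 52.3, 44.8 and 43.5 CPM in the SUDS3 knockdown libraries, and 48.0, 48.2 and 53.3 CPM in controls. Every PHF12 knockdown library lay below every control, while the SUDS3 knockdown and control libraries overlapped. SLC4A7 fell with the PHF12 siRNA (39.5 ± 4.58 against 49.8 ± 3.03 CPM in controls, log2 fold change -0.33, SE 0.07, adjusted p = 0.000357). With the SUDS3 siRNA it averaged 46.9 ± 4.73 CPM and did not pass (log2 fold change -0.09, SE 0.07, adjusted p = 0.379). The direct comparison of the knockdowns put SLC4A7 higher in the SUDS3 knockdown than in the PHF12 knockdown (log2 difference 0.25, SE 0.07, adjusted p = 0.00490). That call was lost without PHF12 knockdown replicate 1 (0.15, adjusted p = 0.0904) or without SUDS3 knockdown replicate 1 (0.15, adjusted p = 0.118), and with limma on TPM (adjusted p = 0.0555 and 0.0548 with the 2 pseudocounts).

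SLC4A4 (ENSG00000080493, chromosome 4, 71062667 to 71572087, + strand) had the largest change of any member with the SUDS3 siRNA. Levels were 5.32, 5.22 and 5.83 CPM in the PHF12 knockdown libraries, 2.48, 2.17 and 1.57 CPM in the SUDS3 knockdown libraries, and 6.22, 5.97 and 7.39 CPM in controls. All SUDS3 knockdown libraries lay below every other library. SLC4A4 fell 3.15-fold with the SUDS3 siRNA, to 2.07 ± 0.461 CPM against 6.52 ± 0.760 CPM in controls (log2 fold change -1.65, SE 0.18, adjusted p = 2.78e-09), and the log2 fold change stayed between -1.80 and -1.44 over 19 alternatives. The 3 PHF12 knockdown libraries were also below the 3 controls, at 5.46 ± 0.329 CPM, but the difference did not pass (log2 fold change -0.26, 95% interval -0.59 to 0.07, adjusted p = 0.276). SLC4A4 was lower in the SUDS3 knockdown than in the PHF12 knockdown as well (log2 difference -1.39, SE 0.18, adjusted p = 5.00e-08).

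The remaining sodium-coupled members were near the detection limit. SLC4A5 (ENSG00000188687, chromosome 2, 74216242 to 74343414, - strand) had 12, 24 and 8 counts in the PHF12 knockdown libraries, 4, 12 and 12 in the SUDS3 knockdown libraries, and 12, 20 and 4 in controls, which is 1 to 6 fragments a library. The groups overlapped, and neither the log2 fold change with the PHF12 siRNA (0.15, SE 0.80) nor that with the SUDS3 siRNA (-0.36, SE 0.82) passed. SLC4A5 shares 1324 exon bases with the far more abundant MTHFD2 on the opposite strand and 3809 with AC006030.1 on its own strand, so even these few counts are uncertain. SLC4A10 (ENSG00000144290, chromosome 2, 161424332 to 161985282, + strand), a transporter of neurons and choroid plexus, had 8, 0 and 0 counts in the PHF12 knockdown libraries, 0, 4 and 4 in the SUDS3 knockdown libraries, and 8, 16 and 0 in controls. It did not pass the low-count filter. A count of 0 allows up to 3 fragments, or 0.236 to 0.316 CPM depending on the library. Differences in SLC4A10 below that level were not detectable at this depth.

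SLC4A2 (ENSG00000164889, chromosome 7, 151057210 to 151076527, + strand), the widely expressed chloride-bicarbonate exchanger, was the most abundant member and differed least between groups. It measured 166.5, 146.3 and 160.8 CPM in the PHF12 knockdown libraries, 166.8, 170.7 and 156.9 CPM in the SUDS3 knockdown libraries, and 164.3, 157.2 and 150.8 CPM in controls. The groups overlapped. Neither the PHF12 siRNA (log2 fold change 0.00, 95% interval -0.08 to 0.09, adjusted p = 0.968) nor the SUDS3 siRNA (0.07, interval -0.02 to 0.15, adjusted p = 0.250) gave a difference that passed. SLC4A2 shares 331 exon bases with CDK5 on the opposite strand, which stood at 38.2 CPM in the PHF12 knockdown, 53.2 CPM in the SUDS3 knockdown and 43.4 CPM in controls.

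SLC4A3 (ENSG00000114923, chromosome 2, 219627327 to 219641980, + strand), the exchanger best known from heart and brain, had the same signs as SLC4A8 at a smaller size. Its levels were 4.82, 6.01 and 6.48 CPM in the PHF12 knockdown libraries, 2.84, 2.75 and 3.33 CPM in the SUDS3 knockdown libraries, and 4.11, 3.89 and 4.43 CPM in controls. The 3 groups did not overlap. SLC4A3 rose with the PHF12 siRNA (5.77 ± 0.854 against 4.15 ± 0.273 CPM in controls, log2 fold change 0.48, SE 0.17, adjusted p = 0.0303) and fell with the SUDS3 siRNA (2.98 ± 0.313 CPM, log2 fold change -0.48, SE 0.18, adjusted p = 0.0314). Between the knockdowns it was lower with the SUDS3 siRNA (log2 difference -0.96, SE 0.18, adjusted p = 2.13e-05), and this call held in all 19 alternatives. The 2 calls against controls each depended on single libraries. The rise with the PHF12 siRNA was lost without control replicate 1 (adjusted p = 0.0716) or 2 (0.106), or without PHF12 knockdown replicate 2 (0.0959) or 3 (0.151), and the fall with the SUDS3 siRNA was lost without control replicate 1 (0.0596) or 3 (0.0989), without SUDS3 knockdown replicate 1 (0.0838) or 2 (0.114), or with no low-count filter (0.0536).

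SLC4A11 (ENSG00000088836, chromosome 20, 3227417 to 3239559, - strand), whose loss causes a corneal endothelial dystrophy, was the only member that rose with the SUDS3 siRNA. It measured 12.6, 9.33 and 13.8 CPM in the PHF12 knockdown libraries, 20.7, 24.1 and 18.6 CPM in the SUDS3 knockdown libraries, and 11.8, 12.1 and 12.1 CPM in controls. Every SUDS3 knockdown library was above every other library, and the PHF12 knockdown libraries spread to both sides of the controls. SLC4A11 rose 1.76-fold with the SUDS3 siRNA (21.2 ± 2.76 against 12.0 ± 0.194 CPM in controls, log2 fold change 0.82, SE 0.11, adjusted p = 2.67e-07), between 0.72 and 0.90 over 19 alternatives. With the PHF12 siRNA the mean was 11.9 ± 2.32 CPM and no difference passed (log2 fold change -0.01, 95% interval -0.24 to 0.21, adjusted p = 0.952). Between the knockdowns SLC4A11 was higher with the SUDS3 siRNA (log2 difference 0.83, SE 0.11, adjusted p = 9.69e-08).

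Over the 7 members tested, 2 were called higher in the PHF12 knockdown (SLC4A8 and SLC4A3), 1 was called lower (SLC4A7) and 4 did not pass, where 31.9% of all genes tested were called, 14.8% higher and 17.1% lower. SLC4A8 is in that count by choice. In the SUDS3 knockdown 1 was higher (SLC4A11), 3 were lower (SLC4A8, SLC4A4 and SLC4A3) and 3 did not pass, where 38.7% of all genes were called, 19.6% higher and 19.2% lower. Between the knockdowns, 2 members were higher in the SUDS3 knockdown (SLC4A7 and SLC4A11), 3 were lower (SLC4A8, SLC4A4 and SLC4A3) and 2 did not pass, where 43.9% of genes were called, 22.7% higher and 21.1% lower. SLC4A8 is in this count by choice too, and of the other 6 members 2 were higher, 2 lower and 2 did not pass. The median log2 fold change of the 7 was 0.00 in the PHF12 knockdown and -0.36 in the SUDS3 knockdown, beside -0.00 and -0.02 over all genes. Among all genes the PHF12 calls were 46.4% higher under TMM and 56.9% under upper-quartile scaling, and the calls between the knockdowns were 51.8% and 41.2% higher in the SUDS3 knockdown. The same 3, 4 and 5 members were called with each. Both knockdowns were set against the same 3 controls, so their fold changes are not independent.

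**Figure D2:**
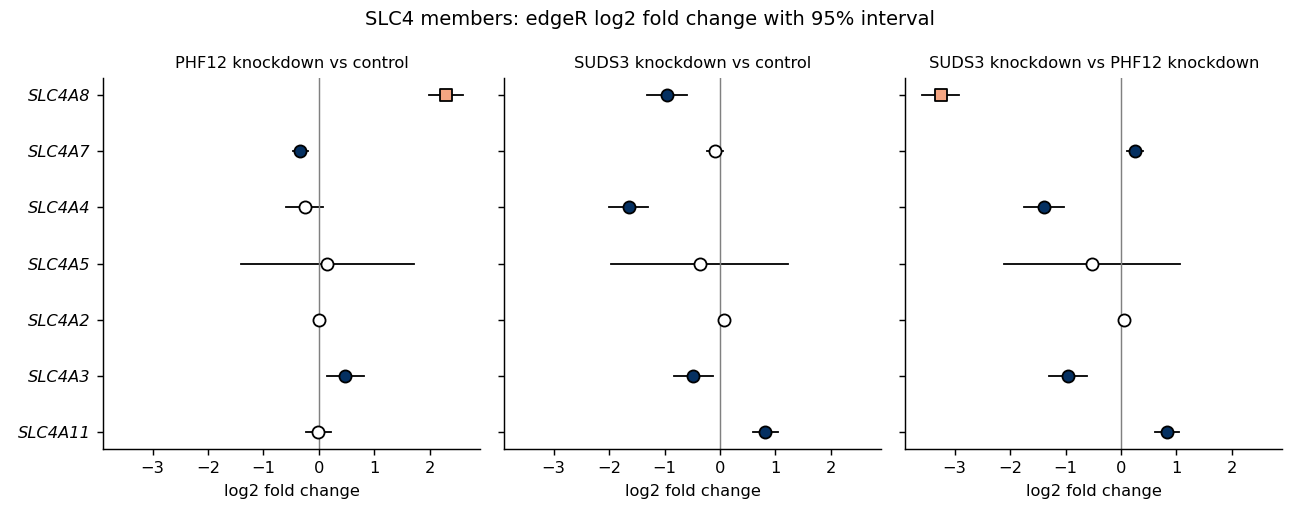
edgeR log2 fold changes (horizontal axes) with 95% intervals for the 7 members tested, in PHF12 knockdown against control, SUDS3 knockdown against control and SUDS3 against PHF12 knockdown. Dark circles passed at an adjusted p under 0.05, white circles did not, and squares mark SLC4A8 in the comparisons for which it was chosen; SLC4A4 reaches -1.65 and SLC4A11 0.82 with the SUDS3 siRNA, while both lie near 0 or have intervals across it with the PHF12 siRNA.

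Compared between genes as CPM per kilobase of merged exons, SLC4A2 led in every group, at 20.8 ± 1.37 in the PHF12 knockdown, 21.7 ± 0.936 in the SUDS3 knockdown and 20.7 ± 0.888 in controls. SLC4A7 had rank 2 at 4.11, 4.87 and 5.18 CPM per kilobase in PHF12 knockdown, SUDS3 knockdown and control, and SLC4A11 rank 3 at 2.74, 4.87 and 2.76. SLC4A7 and SLC4A11 could not be ordered in the SUDS3 knockdown, where their libraries overlapped and their ranks traded places with the length of the longest coding transcript in place of merged exons. SLC4A3 had rank 4 at 1.13, 0.585 and 0.814 CPM per kilobase. In the PHF12 knockdown SLC4A8 had rank 5 at 0.721 ± 0.0771 and SLC4A4 rank 6 at 0.567 ± 0.0342 CPM per kilobase, without overlap. In the SUDS3 knockdown and in controls the order of the pair was the other way round, with SLC4A8 at 0.0758 ± 0.00538 and 0.146 ± 0.0225, and SLC4A4 at 0.215 ± 0.0480 and 0.678 ± 0.0790 CPM per kilobase in SUDS3 knockdown and control. In controls the libraries of SLC4A3 and SLC4A4 overlapped, so their order is not settled there. SLC4A5 and SLC4A10 were last in all groups, at most 0.0378 and 0.0233 CPM per kilobase, and overlapped in the SUDS3 knockdown and in controls.

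The summed level of the 8 members was 30.1 ± 1.68 CPM per kilobase in the PHF12 knockdown, 32.4 ± 1.69 in the SUDS3 knockdown and 30.4 ± 0.546 in controls. SLC4A8 made up 2.39 ± 0.240% of it in the PHF12 knockdown, 0.235 ± 0.0292% in the SUDS3 knockdown and 0.482 ± 0.0736% in controls. Even where it was highest, SLC4A8 thus remained a small part of SLC4 RNA. The family genes outside the 8 were at the same low level as SLC4A10: SLC4A1, the exchanger of red blood cells, had at most 20 counts in any library and SLC4A9 at most 16.

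An siRNA can also act on transcripts other than its target through short matches in their 3' untranslated regions (UTRs), and the sources used here do not give the siRNA sequences. Earlier scans of these same fold changes had picked the hexamers AATCAC for the PHF12 siRNA and TACATT for the SUDS3 siRNA, so what follows is descriptive. Among 13770 tested protein-coding genes, each with its longest GENCODE 3' UTR, AATCAC was present in 30.7% and TACATT in 40.9%. With the PHF12 siRNA 38.2% of genes with AATCAC fell, against 13.5% of those without, and with the SUDS3 siRNA 31.4% of genes with TACATT fell, against 17.2% of those without. With the hexamers exchanged, 26.4% of genes with TACATT fell in the PHF12 knockdown, against 17.5% of those without. In the SUDS3 knockdown 26.1% of genes with AATCAC fell, against 21.6% of those without. These shares were not adjusted for the length of the 3' UTR. Among the members, SLC4A4 holds TACATT at 4 places in a 3' UTR of 4336 bases. These sites are shown because SLC4A4 had the largest fall with the SUDS3 siRNA. They are read on the + strand of GRCh38 with the hexamer in capitals:
SLC4A4, chr4:71567874-71567899: gaacagaaacTACATTgtaacctgtt
SLC4A4, chr4:71568534-71568559: atctgttgagTACATTgaagaatatt
SLC4A4, chr4:71569530-71569555: tttaatatgaTACATTacatattgtg
SLC4A4, chr4:71570315-71570340: aatagtacctTACATTtgctaaacag
SLC4A8 holds TACATT at 4 places and AATCAC at 2 in a much longer 3' UTR of 8325 bases. Its TACATT sites, also on the + strand, are shown because it fell with the SUDS3 siRNA:
SLC4A8, chr12:51508434-51508459: ctcttgaggaTACATTccaattccat
SLC4A8, chr12:51508664-51508689: aatttaaaacTACATTtatagttttt
SLC4A8, chr12:51512106-51512131: caggttggctTACATTatcatcaaca
SLC4A8, chr12:51515412-51515437: gaggtgctggTACATTtcccttgttt
Its AATCAC sites are shown because it was higher, not lower, with the PHF12 siRNA:
SLC4A8, chr12:51508526-51508551: aatggaccaaAATCACcttcagccat
SLC4A8, chr12:51513762-51513787: cttttaaattAATCACaaatgtttga
The hexamers of the other members are given for comparison. SLC4A7 holds no AATCAC in 4043 bases and fell with the PHF12 siRNA. It holds TACATT once, in chr3:27375741-27375766 on the - strand, and did not pass with the SUDS3 siRNA:
SLC4A7, chr3:27375741-27375766: ttttgtagatTACATTtaatagcttg
SLC4A3 holds neither hexamer in 252 bases and fell with the SUDS3 siRNA. SLC4A11 and SLC4A2 also hold neither, in 370 and 160 bases. SLC4A5 holds AATCAC at 2 places and TACATT at 3 in 2584 bases, and passed with neither siRNA. SLC4A10 holds TACATT at 2 places and no AATCAC in 2130 bases, and was not among the genes tested. The part of these sites in any member's change was not tested.

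The members work beside other acid-base genes, described here from 6 lists by their counts and medians (each median a log2 fold change). The shares to set beside these counts are those over all genes tested, 14.8% higher and 17.1% lower in the PHF12 knockdown and 19.6% higher and 19.2% lower in the SUDS3 knockdown. Carbonic anhydrases interconvert carbon dioxide and bicarbonate. Of 15 listed, 8 were tested. With the PHF12 siRNA 3 rose, 1 fell and 4 did not pass (median 0.32), and with the SUDS3 siRNA 2 rose, 2 fell and 4 did not pass (median 0.00). CA12, a membrane enzyme that faces outward, fell to 2.18 ± 0.245 CPM in the PHF12 knockdown, against 7.16 ± 0.616 CPM in controls (log2 fold change -1.72, SE 0.18, adjusted p = 5.58e-10). CA2, the abundant cytosolic enzyme, rose in both knockdowns, to 557.0 ± 4.26 CPM in the PHF12 knockdown (log2 fold change 0.31, adjusted p = 1.17e-11) and 505.6 ± 2.75 CPM in the SUDS3 knockdown (0.17, adjusted p = 4.52e-06), against 450.9 ± 2.76 CPM in controls. CA8, a member of the family without enzyme activity, rose in the SUDS3 knockdown (0.30, adjusted p = 4.31e-06).

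Regulators of bicarbonate transporters include kinases of the WNK pathway, scaffolds and the inositol trisphosphate receptor partners AHCYL1 and AHCYL2, which bind SLC4A4. All 13 listed were tested. With the PHF12 siRNA 4 rose, 4 fell and 5 did not pass (median 0.03), where 31.9% of all genes were called, and with the SUDS3 siRNA 8 rose, 1 fell and 4 did not pass (median 0.16), where 19.6% of all genes were higher. AHCYL2 moved in opposite directions. It stood at 14.2 ± 1.34 CPM in the PHF12 knockdown, 35.9 ± 1.14 CPM in the SUDS3 knockdown and 26.4 ± 1.95 CPM in controls. It fell with the PHF12 siRNA (log2 fold change -0.89, SE 0.08, adjusted p = 3.53e-11) and rose with the SUDS3 siRNA (0.44, SE 0.08, adjusted p = 1.70e-05), and differed between the knockdowns (1.33, SE 0.08, adjusted p = 2.92e-16). SLC4A4 itself was lower in the SUDS3 knockdown, where AHCYL2 was higher. WNK1, which stands at the head of the kinase pathway, rose in the PHF12 knockdown (0.23, adjusted p = 2.94e-06). OXSR1, a kinase that WNK kinases activate, rose with the SUDS3 siRNA (0.53, adjusted p = 6.29e-13), as did the scaffold SLC9A3R1 (0.61, adjusted p = 6.66e-11). OXSR1 was also higher in the PHF12 knockdown (0.18, adjusted p = 0.000787), where SLC9A3R1 was lower (-0.15, adjusted p = 0.0476).

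Monocarboxylate transporters carry lactate together with a proton, and BSG and EMB escort them to the membrane. Of 6 listed, 4 were tested, and with the PHF12 siRNA all 4 fell (median -0.47), where 17.1% of all genes fell. SLC16A1 fell to 270.9 ± 13.6 CPM in the PHF12 knockdown, against 369.5 ± 8.60 CPM in controls (log2 fold change -0.45, SE 0.03, adjusted p = 1.02e-13). The falls were unequal, and that of BSG was small (log2 fold change -0.09, adjusted p = 0.0268). That of SLC16A7 rests on few fragments, with 20 to 56 counts a library in the PHF12 knockdown and 68 to 108 in controls. With the SUDS3 siRNA 2 rose and 2 fell (median -0.28). EMB fell in both knockdowns, to 36.0 ± 1.35 CPM in the PHF12 knockdown (log2 fold change -0.49, adjusted p = 3.15e-08) and 31.2 ± 1.47 CPM in the SUDS3 knockdown (-0.70, adjusted p = 1.34e-11), against 50.7 ± 0.461 CPM in controls. BSG (0.23, adjusted p = 1.59e-07) and SLC16A1 (0.15, adjusted p = 0.000375) rose with the SUDS3 siRNA.

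Sodium-proton exchangers expel acid in exchange for sodium, from the cell or from organelles. Of 11 listed, 10 were tested. With the PHF12 siRNA 3 rose, 3 fell and 4 did not pass (median 0.03), and with the SUDS3 siRNA 4 rose, 3 fell and 3 did not pass (median 0.08). SLC9A5 rose with the PHF12 siRNA, to 12.1 ± 0.321 CPM against 8.98 ± 0.461 CPM in controls (log2 fold change 0.43, SE 0.12, adjusted p = 0.00476). It fell with the SUDS3 siRNA (-0.40, SE 0.12, adjusted p = 0.00840).

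SLC26 anion exchangers overlap with SLC4 in function, and 7 of 11 listed were tested. No member of that list passed in edgeR with the PHF12 siRNA, and 1 had an unadjusted p under 0.05 (median 0.02). DESeq2, given all genes with any count, called 1 of 10, where genes without an adjusted p stand as not called. Limma on TPM called 0 of 4 with either pseudocount. With the SUDS3 siRNA 1 rose, 1 fell and 5 did not pass (median 0.18). SLC26A6, a chloride-bicarbonate and oxalate exchanger, rose (log2 fold change 0.34, SE 0.06, adjusted p = 1.23e-05) and SLC26A10 fell (-0.65, SE 0.17, adjusted p = 0.00205).

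The sodium pump maintains the gradient that sodium-coupled members use. Of 15 subunits listed, 8 were tested. With the PHF12 siRNA 2 rose, 2 fell and 4 did not pass (median 0.03), with ATP1B3 lower (-0.29 on the log2 scale, adjusted p = 1.14e-08) and FXYD5 higher (0.26, adjusted p = 0.0105). With the SUDS3 siRNA 1 rose, 1 fell and 6 did not pass (median 0.06), with ATP1B1 lower (-0.21, adjusted p = 0.0109).

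**Figure D3:**
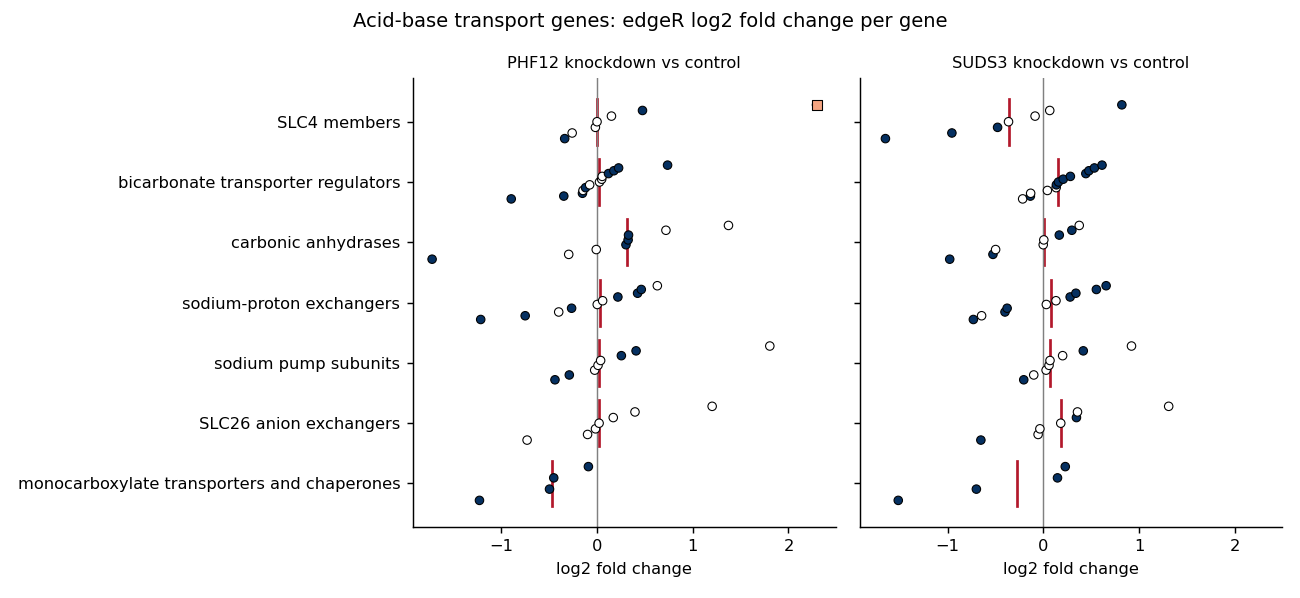
edgeR log2 fold change (horizontal axes) of each tested gene in the SLC4 members and the 6 acid-base lists, for PHF12 knockdown against control (left) and SUDS3 knockdown against control (right). Dark circles passed at an adjusted p under 0.05 and white circles did not. The square is SLC4A8 where it was chosen for its difference, and red lines are list medians. All 4 monocarboxylate genes lie below 0 in the PHF12 knockdown, with a median of -0.47 and BSG nearest to 0 at -0.09.

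The profile of SLC4A8 over the 9 libraries was compared with those of 11724 other protein-coding genes with an average log2 CPM of at least 1. The closest 5, by Pearson correlation of log2 CPM, were SF3A3 (0.9935), which encodes a splicing factor subunit, NCAPH (0.993), a condensin subunit, FAM50A (0.993), a nuclear protein, RPL27A (0.9927), a ribosomal protein, and C1QL4 (0.992), a secreted protein with a C1q domain. The points share 3 groups and 9 libraries, and these correlations are descriptions. Being picked by them, the 5 genes share the directions of SLC4A8 by choice. In the SUDS3 knockdown C1QL4 (edgeR adjusted p = 0.0563) and FAM50A (0.0839) did not pass. C1QL4 came nearest in size, at 8.17 ± 0.275 CPM in the PHF12 knockdown, 3.26 ± 0.106 CPM in the SUDS3 knockdown and 4.23 ± 0.0910 CPM in controls (log2 fold changes 0.95 and -0.37 in PHF12 and SUDS3 knockdown). In the other 4 genes the log2 fold change was 0.19 to 0.37 in the PHF12 knockdown and -0.18 to -0.07 in the SUDS3 knockdown, far smaller than the 2.29 and -0.95 of SLC4A8.

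**Figure D4:**
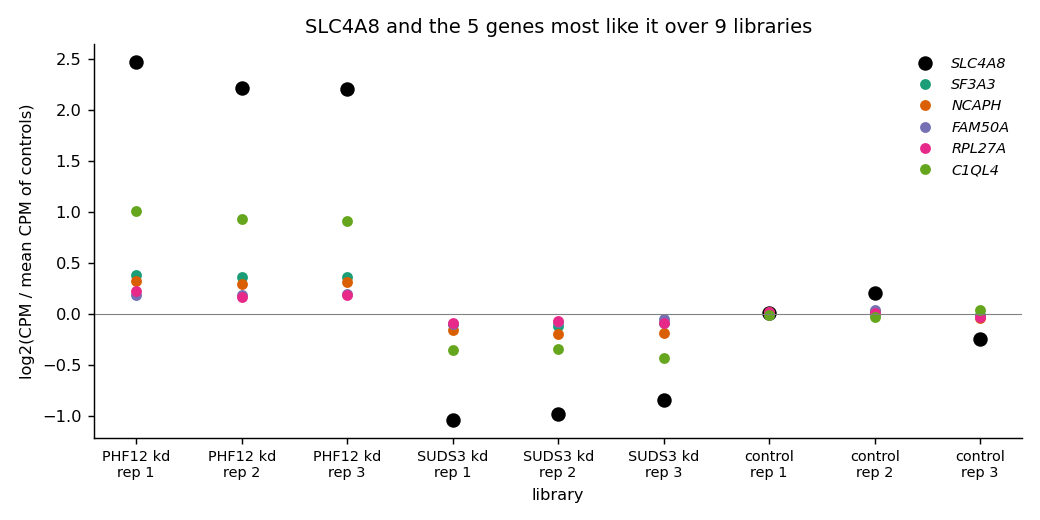
log2 of CPM over the mean CPM of the controls (vertical axis) for SLC4A8 (black) and the 5 genes with the most similar profile, in each of the 9 libraries (horizontal axis). Points are single libraries. Those of all 6 genes lie above 0 in the PHF12 knockdown and below 0 in the SUDS3 knockdown, with SLC4A8 farthest from 0 and C1QL4 next. The 5 genes were picked for this likeness over the same libraries, so their shared directions are no separate result.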

How the data were processed

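The authors deposited counts, whole numbers per gene, and TPM; per the submitters' processing notes they used Trimmomatic 0.36, HISAT2 2.1.0, HTSeq and GRCh38, and no source used here gives the strand setting. Per the labels' protocols, libraries were stranded poly-A TruSeq libraries from TRIzol RNA treated with DNase. Of the deposited counts above 0, 96.1% are multiples of 4. The deposited TPM keep 1 length per gene in all libraries, but over 11765 genes with at least 100 counts in each library that length has Pearson r = -0.0022 with merged exon length on the log scale, so TPM were compared only within a gene and levels between genes are CPM per kilobase of GENCODE 29 exons. Reads that overlap several genes can be miscounted.

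Groups came from the labels, which do not state that replicates came from separate cultures; p-values measure the spread between these libraries. No 2 libraries of a group were identical. The counts of all 9 libraries entered 1 model in edgeR 4.0.16 (R 4.3.3), after filterByExpr on the groups (minimum count 10) and TMM scaling, with robust quasi-likelihood F-tests of 3 contrasts on 3 group means, and Benjamini-Hochberg adjustment over 18088 genes, with a threshold of 0.05. SE come from the F-statistic, and 95% intervals are 1.96 SE. Levels are CPM with TMM-scaled library sizes. The fit was tested on simulated data.

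Members, lists and hexamers were chosen with earlier results of these data known. Named genes are the members, the targets, SLC4A1 and SLC4A9, and the 5 most like SLC4A8. From each list and contrast against control come the 2 genes with the smallest p among those that passed. The overlapping neighbours and SLC16A7 were added. Some genes that this rule names are not reported here. Upstream sequences are RefSeq's (GRCh38.p14; 7 of 8 members matched), and UTRs are from GENCODE 29. The alternatives were other scalings and filters, counts divided by 4, only the 2 groups compared, a replicate block, leaving out each library, DESeq2 1.42.0 and limma 3.58.1 on TPM.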

Additional observations from a re-analysis of the deposited data

How the results depend on the processing

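Outside the fits that left out a library, the number of genes called stayed within 1.5 times the main count in every alternative, and the number of members called moved by at most 1. Leaving out each library in turn gave 4918 to 5800 genes called in the PHF12 knockdown, 6100 to 6943 in the SUDS3 knockdown and 7304 to 7983 between the knockdowns, and 2 to 3, 3 to 4 and 4 to 5 members called. In the fits that left out a library, each group kept at least 2. No called fold change of a member reversed. Values of SLC4A2, SLC4A5 and SLC4A11 that had not passed changed sign under some settings. The calls that were lost concern SLC4A3, SLC4A7 and SLC4A8 and stand beside their values. With limma on TPM, the log2 fold change of SLC4A8 in the PHF12 knockdown was 1.78 with a pseudocount of 0.1 and 0.63 with a pseudocount of 1, beside a TPM of 0.161 in controls. The rank of SLC4A7 by level in the SUDS3 knockdown was 3 and that of SLC4A11 was 2 with the longest coding transcript, an alternative added after seeing the data.

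With the replicate number as a block, 5848, 7073 and 7981 genes and 3, 4 and 5 members were called in the PHF12 knockdown, in the SUDS3 knockdown and between them. Whether the numbers pair the libraries is not settled. Correlations of deviations from the group means were -0.0158 to 0.0304 for the 9 pairs with the same number and -0.0325 to 0.0179 for the other 18. The highest were control 3 with PHF12 knockdown 3 (0.0304) and control 1 with PHF12 knockdown 1 (0.0249). The exchanged pairs, control 1 with PHF12 knockdown 3 (-0.0325) and control 3 with PHF12 knockdown 1 (-0.0246), were the lowest. Noise in genes with few counts pulls such correlations toward 0, so they cannot decide on a pairing. Depth limits SLC4A5 and SLC4A10, and counts divided by 4 or a minimum count of 40 left 6 members tested.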

Other observations

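The deposited TPM table cannot be used to rank the members against each other. The length it implies for each gene, scaled by library, was 3.56 times the merged exon length for SLC4A2 and 2.24 times for SLC4A8, but 0.129 times for SLC4A4, 0.131 times for SLC4A5, 0.372 times for SLC4A7 and 0.453 times for SLC4A11. On that table SLC4A4 in controls reads 12.9 ± 1.52 TPM and SLC4A2 14.3 ± 0.609 TPM (SD, n = 3), although SLC4A4 had 272 to 280 counts a library and SLC4A2 5712 to 7272. Over 11765 genes the implied length had Pearson r = 0.0025 with the longest coding transcript, while the 2 reference lengths had r = 0.8438 with each other across the same genes, which are not independent replicates. Within a gene the ratio of count to TPM, scaled by library, varied by a CV of at most 0.000404 over the 9 libraries, so ratios of a gene's TPM between groups keep those of its counts. With a pseudocount added, the fold change still depends on the level that the length sets. How the lengths came about was not tested.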
